A study of Papilio xuthus with 10 samples.

Results

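A set of 92 genes of the swallowtail butterfly *Papilio xuthus* was expressed in larvae, was low or silent in pupae and adults, and was lower in the 4th larval instar than in the instars around it. The genes were chosen from the deposited expression values of 15123 genes, of which they make up 0.608%. The values are RPKM, which are reads divided by gene length and by the total reads of the library, and 1 was added to each before ratios were taken. A gene was included if its RPKM was 10 or more in the 2nd, 3rd and 5th instars, if the lowest of these 3 values was at least 8 times the highest value in pupae and adults, and if it was at least 4 times the value in the 4th instar. The levels in these 8 libraries therefore chose the genes, and they are given below as a description. The egg and the 1st instar had no part in the choice.

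RNA from whole bodies was sequenced in 10 libraries, 1 for each of the egg, the larval instars L1 to L5, the pupa of each sex and the adult of each sex. Eggs, L1 and L2 were each pooled from several animals, and each library from L3 onwards came from a single animal, so that in L3 to L5 the stage and the animal cannot be told apart. The sex of eggs and larvae is not given in the labels. Larvae in the study were raised on a plant of the citrus family, no treatment or mutation is stated for these animals, and the time of sampling within an instar is not given in the sources used here.

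An instar is the period between moults, in which the caterpillar feeds and grows before it sheds its cuticle. At the end of the last instar the animal becomes a pupa, in which larval tissues are broken down or rebuilt into those of the adult. Genes active in caterpillars and silent afterwards are known in Lepidoptera from the midgut, where leaf material is digested and plant compounds are detoxified, from the silk glands and from the soft larval cuticle. The table pairs no identifier with a gene name, and 0 of the 15123 identifiers matched any of the 13139 genes that RefSeq annotates on assembly Pxut_1.1. None of the 92 genes can be placed in these groups here, the larval identity of the libraries could not be checked against marker genes, and no gene or protein sequence is shown.

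Library totals read back from the values lay between 23378656 reads in L5 and 35161755 in the male pupa. Reads summed over genes came to between 76.2% and 98.6% of the total in egg, L1, pupae and adults, and to between 124% and 154% in L2 to L5. The cause of the excess over 100% was not tested. Intervals given for single genes are exact Poisson 95% intervals of the reads, and they cover counting error only. With 1 library per stage there is no replicate check on any difference, and no test was made.

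The 92 genes were abundant before and after the 4th instar and fell to a lower level in it. The median RPKM was 138 in the egg, 269 in L1, 525 in L2, 572 in L3, 17.6 in L4 and 472 in L5. In pupae it was 0.722 (female) and 0.601 (male), and in adults 0.138 (female) and 0.382 (male). The high values in L2, L3 and L5, the gap at L4 and the low values in pupae and adults follow from the rule. In L4, 84 of the 92 genes had an RPKM of 1 or more (91.3%), against 99.6% of the 3288 genes with 10 RPKM or above in L2, L3 and L5 and 72.2% of all genes. An RPKM of 10 or more was found for 58 of the 92, against 3035 of the 3288 genes and 5157 of all 15123. At 100 or more there were 23 of the 92, against 760 of the 3288 and 793 of all genes. In whole bodies, fewer cells of a type and less RNA per cell cannot be told apart. For comparison, 66 genes met the larval part of the rule but were kept through L4, with an L4 value at most 2-fold below the lowest of L2, L3 and L5 (kept genes).

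**Figure D1:**
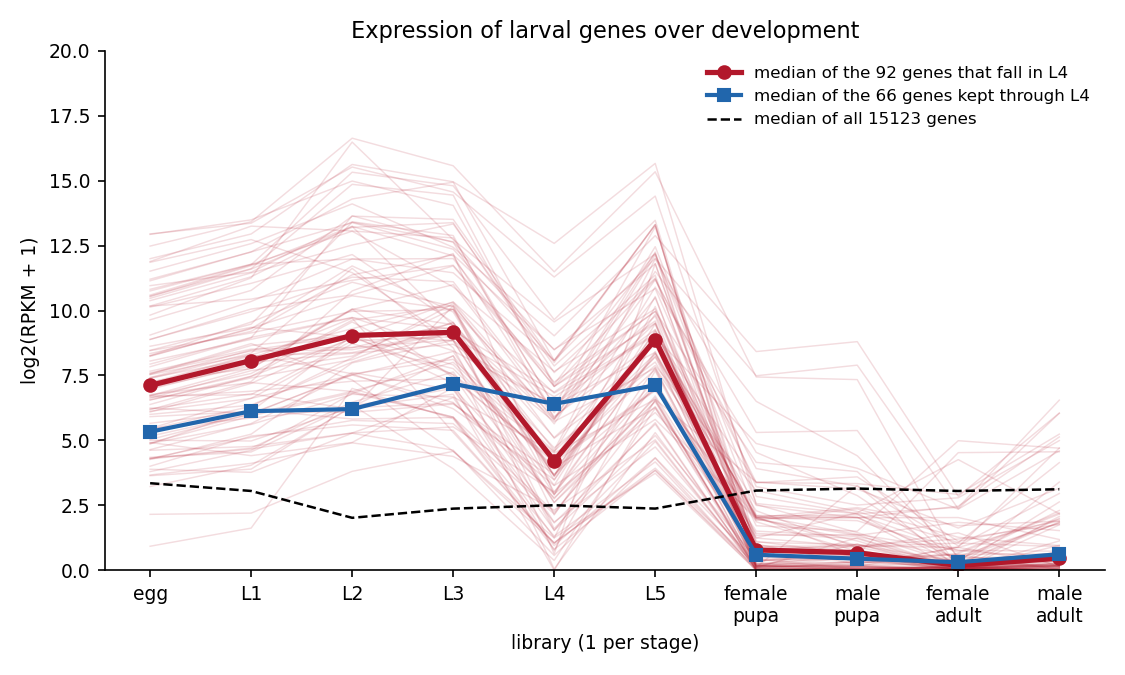
Expression of the 92 genes that fall in L4, as log2(RPKM + 1) on the vertical axis, over the 10 libraries in order of development, with 1 thin line per gene. The thick lines join the medians of these genes (17.6 RPKM in L4 and 472 in L5) and of the 66 larval genes kept through L4 (83.9 and 139), and the dashed line joins the median of all 15123 genes.

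On the scale of RPKM + 1, L4 lay between 4.00-fold and 450-fold below the lowest of L2, L3 and L5, with a median of 10.8-fold. In 57 genes the difference was 8-fold or more, in 26 it was 16-fold or more and in 2 it was 100-fold or more. Among the 3288 genes that had 10 RPKM or above in L2, L3 and L5, 160 (4.87%) were 4-fold or more lower in L4, and the 92 genes made up 57.5% of these. The share over the complete table was 1.2%. Of the 201 genes that met the larval part of the rule (6.11% of the 3288), 45.8% were 4-fold or more lower in L4, against 2.2% of the 3087 others of the 3288. Both parts of the rule use the same lowest larval value, so that these shares are not independent of each other and are given as a description.

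**Figure D2:**
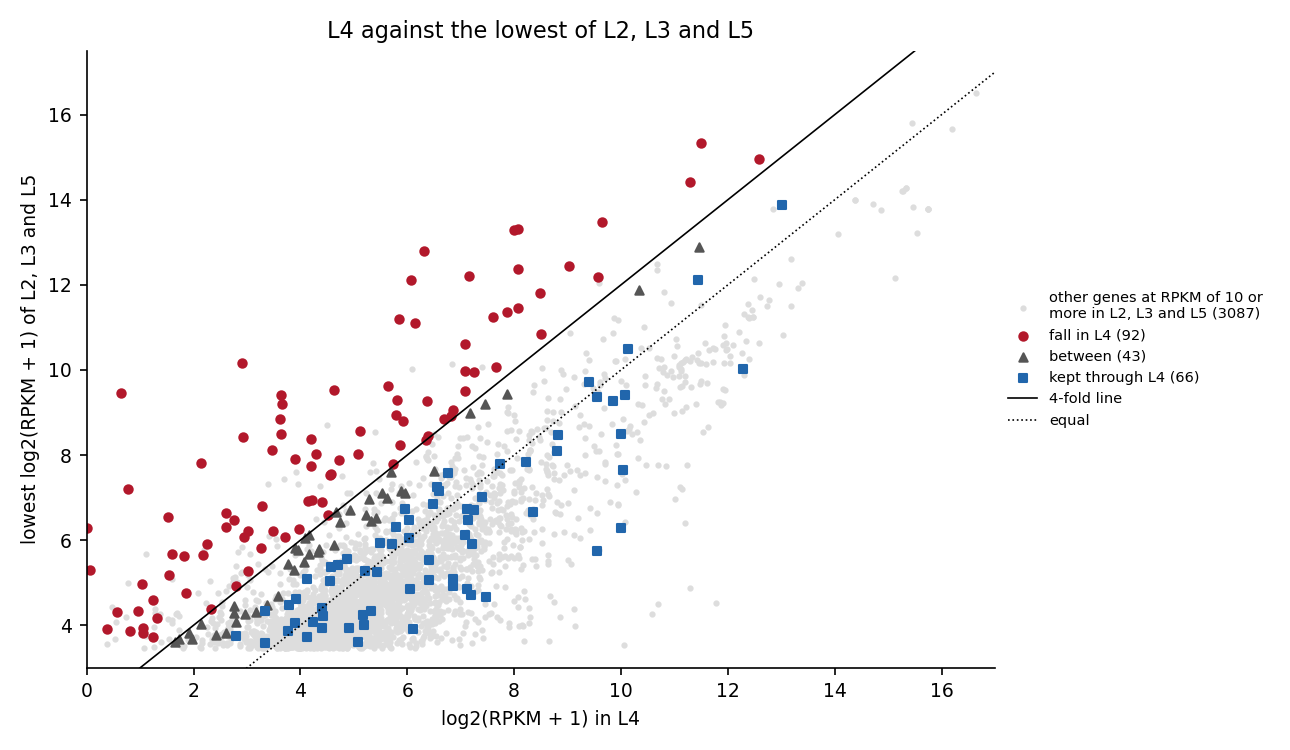
The lowest log2(RPKM + 1) of L2, L3 and L5 (vertical axis) against log2(RPKM + 1) in L4 (horizontal axis), for the 3288 genes that had 10 RPKM or above in L2, L3 and L5. The 92 genes that fall in L4 lie on or above the solid 4-fold line by the choice of the genes, the 66 kept genes lie around the dotted line of equal values, and 43 larval genes lie between the sets.

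The 2 genes with the highest median over L2, L3 and L5 remained abundant in L4. RR46_02064, of 327 bp, had an RPKM of 4084 in the egg, 7895 in L1, 50449 in L2, 31766 in L3, 6141 in L4 and 51900 in L5, and of 4.79 and 1.74 in the female and male pupae and 0.174 and 2.64 in the female and male adults. Its L4 value was 5.17-fold below L3, the lowest of the 3 other instars, and lay between its values in the egg and L1. RR46_05480, of 723 bp, had 5718 in the egg, 10955 in L1, 101722 in L2, 48730 in L3, 2876 in L4 and 41535 in L5, or 14.4-fold less in L4 than in L5. It was at 173 and 161 in the female and male pupae and at 0.315 and 3.94 in the female and male adults, so that its signal persisted into the pupa at a level far below that of the larva.

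The difference between L4 and the other instars was largest in a gene that was nearly lost from the L4 library. RR46_05828, of 489 bp, had an RPKM of 129 in the egg, 233 in L1, 1069 in L2, 699 in L3, 0.556 in L4 (0.240 to 1.10, from 8 reads) and 3584 in L5. Its L4 value lay within the range of its pupal and adult values, which were 0.942 and 0.698 in the female and male pupae and 0 and 0.655 in the female and male adults, and it was 450-fold below L3. RR46_06420, of 1119 bp, had 71.6 in the egg, 153 in L1, 1727 in L2, 4687 in L3, 6.47 in L4 (5.63 to 7.40) and 1138 in L5, a difference of 152-fold. Its values were 0.082 and 8.62 in the female and male pupae and 0.051 and 0.429 in the female and male adults, so that the male pupa was above L4. A single gene of the 92, RR46_12716, named here after its values were seen, had 0 reads in L4. It had an RPKM of 31.2 in the egg, 30.5 in L1, 76.6 in L2, 109 in L3 and 93.5 in L5 and 0 reads in each pupa and adult. Against a floor of 3 reads in L4 (RPKM of 0.207), it was at least 369-fold lower in L4 than in L2. That ratio is of RPKM without the added 1 and cannot be ranked beside the 450-fold and 152-fold above. On RPKM + 1, only RR46_05828 and RR46_06420 were 100-fold or more lower in L4.

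In most genes the comparison with L4 rested on 100 reads or more. The lowest number of reads for any of the 92 genes in L2, L3 or L5 was 178, and 69 genes had 100 reads or more in L4, while 4 had fewer than 10. Near the threshold, RR46_10849 (4.00-fold) and RR46_00887 (4.16-fold) were just inside the set, with 80.8 and 82.9 RPKM in L4. RR46_11028 (3.98-fold, 24.5 RPKM in L4) and RR46_03032 (3.91-fold, 2.14 RPKM) were just outside it. On the pupal and adult side, RR46_05832 and RR46_12866 were just inside, at 8.01-fold and 8.15-fold over their highest pupal or adult value, and RR46_14903 and RR46_11635 were just outside, at 7.76-fold and 7.02-fold.

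The median difference of L4 minus L3 over the 92 genes was -4.57 in log2(RPKM + 1), and that of L5 minus L4 was 3.82. Over all 15123 genes these medians were 0.02 and -0.10. All 92 genes were 4-fold or more lower in L4 than in L3, against 10.2% of the 3288 genes and 3.46% of all genes, and all 92 were 4-fold or more higher in L5 than in L4, against 8.79% and 3.54%, which follows from the rule. Libraries were also rescaled so that all had one upper quartile (quartile scaling) or one summed RPKM (sum scaling). The medians of the 92 genes were then -4.59 and 3.94 under quartile scaling and -4.27 and 3.64 under sum scaling, and 89 genes passed 4-fold in each step under sum scaling. Relative to the lowest of L2, L3 and L5, L4 was lower by a median of 10.8-fold as deposited, 11.8-fold under quartile scaling and 8.23-fold under sum scaling, under which 79 of the 92 genes passed 4-fold.

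The genes took up a large part of the L2, L3 and L5 libraries, in which the rule chose them to be high, and a small part of L4. They held 7.15% of the summed RPKM of the egg, 10.6% of L1, 24.4% of L2, 16.4% of L3, 1.06% of L4 and 13.0% of L5. They held 0.0996% and 0.0942% in the female and male pupae and 0.0162% and 0.0474% in the female and male adults. In L2, 74.4% of their sum came from 10 genes, and in L4 80.8%. The summed RPKM over all genes, which sets the base of these shares, was 1734954 in L4 and ran from 851577 in the female adult to 2446837 in L2 over the 10 libraries. The 66 kept genes held 3.54% of L2, 2.78% of L3, 1.69% of L4 and 2.47% of L5.

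**Figure D3:**
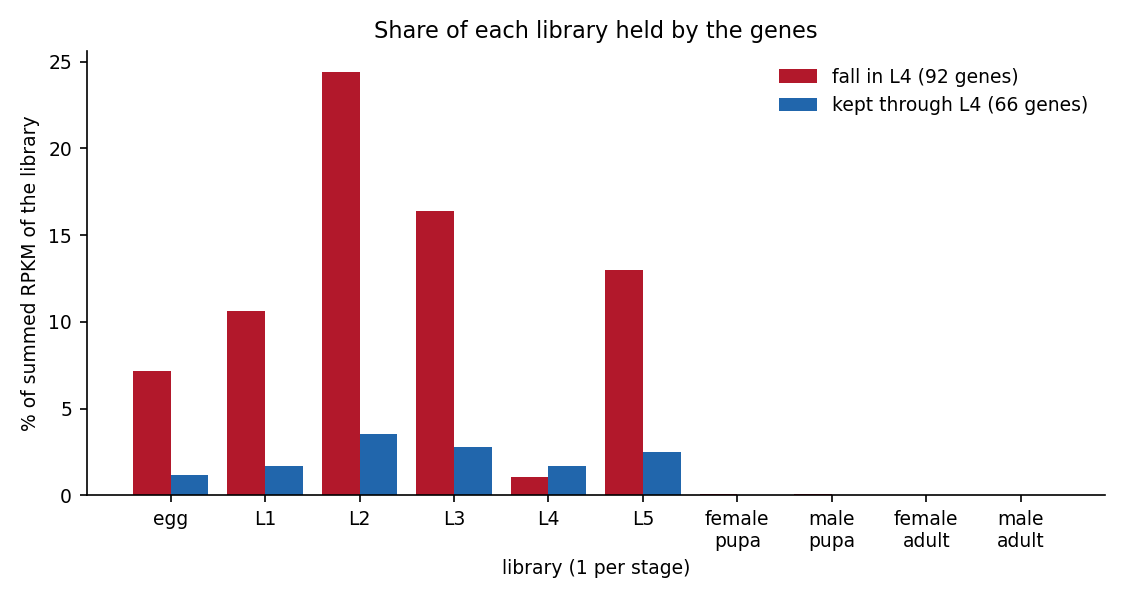
Percent of the summed RPKM of each library (vertical axis, from 0) held by the 92 genes that fall in L4 and by the 66 larval genes kept through L4, over the 10 libraries. The bars of the 92 genes stand at 24.4% in L2, 16.4% in L3, 1.06% in L4 and 13.0% in L5, and those of the kept genes at 3.54%, 2.78%, 1.69% and 2.47%.

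The rule bounds the lowest of L2, L3 and L5 and leaves their order free, and the genes differed in the instar of their highest value. Of the 92 genes, 38 were highest in L2, 32 in L3 and 22 in L5 among these 3 libraries. Other genes were not counted by their highest instar. By pairs, L3 was above L2 in 43 of the 92 genes as deposited, against 2005 of the 3288 genes and 8904 of all genes. L5 was above L2 in 35, against 1757 and 8288, and above L3 in 31, against 1302 and 6811. The highest of the 3 was between 1.14-fold and 54.8-fold above the lowest, with a median of 3.53-fold, within 2-fold in 23 genes and over 10-fold in 12. Under quartile scaling 47, 26 and 19 genes were highest in L2, L3 and L5, and under sum scaling 31, 34 and 27, so that the order of L2 and L3 by this count depended on the scaling. L5 was 4-fold or more below L3 in 16 genes, against 1.89% of the 3288 genes and 1.27% of all genes, and 4-fold or more above it in 6, against 1.79% and 1.92%. L5 was 4-fold or more below L2 in 20 genes, against 5.14% and 3.95%, and 4-fold or more above it in 4, against 5.81% and 6.1%. The median of L5 minus L3 was -0.51 in log2(RPKM + 1), and -0.41 under either scaling. Genes highest in L2 had medians of 2495 RPKM in L2, 651 in L3, 15.7 in L4 and 267 in L5. Genes highest in L3 had 314, 650, 14.5 and 373, and genes highest in L5 had 474, 428, 22.7 and 828. The medians of the 3 groups lay close together in L4, between 14.5 and 22.7 RPKM, and also in L3, between 428 and 651. Those in L2 differed by far more, between 314 and 2495, and those in L5 lay between 267 and 828. The groups were set by the highest of L2, L3 and L5, so that the medians in these libraries depend on the grouping. In the egg the medians were 283, 95.6 and 117 RPKM for the genes highest in L2, L3 and L5.

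**Figure D4:**
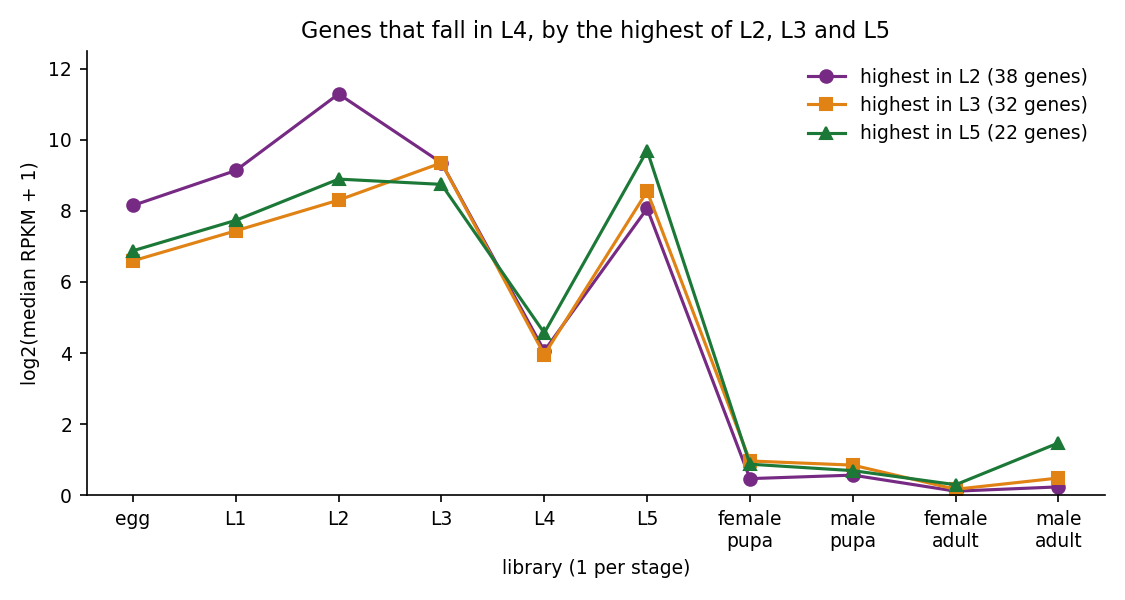
Median expression, as log2(median RPKM + 1) on the vertical axis, over the 10 libraries, for the 38, 32 and 22 genes that were highest in L2, L3 and L5 among these 3 instars. The line of the genes highest in L2 is above the others in the egg (283, 95.6 and 117 RPKM) and in L2 (2495, 314 and 474 RPKM). The lines lie closer together in L3 (651, 650 and 428 RPKM) and in L4 (15.7, 14.5 and 22.7 RPKM).

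RR46_10841 was the gene with the largest excess of L2, at 834 RPKM in L2, 38.6 in L3, 1.07 in L4 and 14.3 in L5, or 21.1-fold over the next instar. RR46_13436 had the largest excess of L3, at 289 in L2, 1232 in L3, 33.0 in L4 and 258 in L5 (4.25-fold). RR46_05832 had the largest excess of L5, at 503 in L2, 185 in L3, 22.5 in L4 and 1915 in L5 (3.80-fold). In each of the 3 the L4 value was below all other larval values, as the rule requires for L2, L3 and L5.

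The egg and L1 are the libraries that the rule did not use. The genes were also detected in the egg library, so that the word larval describes them in relation to pupae and adults only. Over all 15123 genes the egg and L1 libraries were close, with ratios of L1 to egg from 0.228 to 3.17 on RPKM + 1. From L1 to L2, by contrast, 14.1% of all genes were 4-fold or more lower and 2.18% higher. The reason for the likeness of the egg and L1 libraries was not tested. At an RPKM of 1 or more, 91 of the 92 genes were detected in the egg and all 92 in L1, against 99.8% and 99.9% of the 3288 genes and 79.1% and 78.5% of all genes, so that this count is near that of other genes expressed in larvae. An RPKM of 100 was reached by 55 of the 92 genes in the egg and 62 in L1. Of the 3288 genes 928 and 922 reached it in the egg and L1, and of all 15123 genes 1117 and 1101. L1 was below the lowest of L2, L3 and L5 in 52 genes, within their range in 36 and above their highest in 4. Of the 3288 genes 823 were below that lowest value in L1, and of all 15123 genes 1827. Relative to that lowest value, 8 of the 92 genes were 4-fold or more lower in L1, against 1.61% of the 3288 genes and 0.37% of all genes, and 7 were 4-fold or more higher, against 11.1% and 19.5%. In the egg 24 genes were 4-fold or more lower, against 3.35% and 0.78%, and 4 were higher, against 13.0% and 25.5%. The rule chose L2, L3 and L5 to be high, and this shifts such counts. The number of genes lower in L1 was 30 of 126 when L2 was left out of the rule, 16 of 121 without L3 and 27 of 130 without L5, and with the rule applied after scaling it was 24 of 108 (quartile) and 1 of 64 (sum). The median of L1 minus the lowest of L2, L3 and L5 was -0.19 in log2(RPKM + 1) as deposited, -0.76 under quartile scaling and 0.65 under sum scaling, so that its direction depended on the scaling. Over all genes this median was 0.88, 0.52 and 1.49 in the same order. L2 was above L1 in 83 of the 92 genes as deposited, against 1484 of the 3288 genes and 4175 of all genes, and in 56 of the 92 under sum scaling. It was 4-fold or more above L1 in 27 as deposited, against 5.41% of the 3288 genes and 2.18% of all genes.

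L4 was also low relative to the stages before L2. All 92 genes were lower in L4 than in L1 as deposited (90 under quartile scaling), with a median of 10.5-fold. Of the 3288 genes 1855 were lower as deposited, and of all 15123 genes 9239. In the set, 68 genes were 4-fold or more lower, against 10.1% of the 3288 genes and 9.91% of all genes. Against the egg, 88 of the 92 genes were lower in L4 as deposited (78 under quartile scaling), with a median of 6.33-fold. Of the 3288 genes 1986 were lower than in the egg as deposited, and of all genes 10119. In the set, 56 genes were 4-fold or more lower than in the egg, against 10.2% and 12.9%. The medians against L1 and egg were 8.16-fold and 3.79-fold under quartile scaling, and 14.7-fold and 11.5-fold under sum scaling. In the 66 kept genes the median ratio of L4 to L1 was 1.26 as deposited, 1.74 under quartile scaling and 0.870 under sum scaling, which turned its direction. L4 values were used by the rule in both sets of genes.

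Between the egg and L1, on which the rule put no condition, the genes moved together. L1 was above the egg in 88 of the 92 genes as deposited, in 91 under quartile scaling and in 80 under sum scaling. Of the 3288 genes 1574 were above the egg in L1 as deposited, and of all 15123 genes 5541. The median of L1 minus egg in log2(RPKM + 1) was 0.93, 1.21 and 0.59 over the 92 genes and -0.13, 0.02 and -0.40 over all genes, as deposited and under quartile and sum scaling. Over the 91 genes with 100 reads or more in both libraries, the ratio of RPKM in L1 to that in the egg had a median of 1.92 and quartiles of 1.45 and 2.12, and it ranged from 0.694 to 2.70. It lay between 1.5 and 2.5 in 64 of them (70.3%). Over the 9716 genes of the complete table with such depth the median ratio was 0.845, with quartiles of 0.648 and 1.10, and 9.12% of genes lay between 1.5 and 2.5. Of the 3288 genes, 3253 had such depth, with a median ratio of 0.977 and 14.4% between 1.5 and 2.5. The 66 kept genes had a median of 1.74 and 69.2% between 1.5 and 2.5 over 65 genes, so that the higher level in L1 was shared by larval genes with and without the decline in L4. None of the 92 genes differed by 4-fold between L1 and egg, and of all genes 1 (0.00661%) was 4-fold or more lower in L1 than in the egg and 0 were so much higher.

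**Figure D5:**
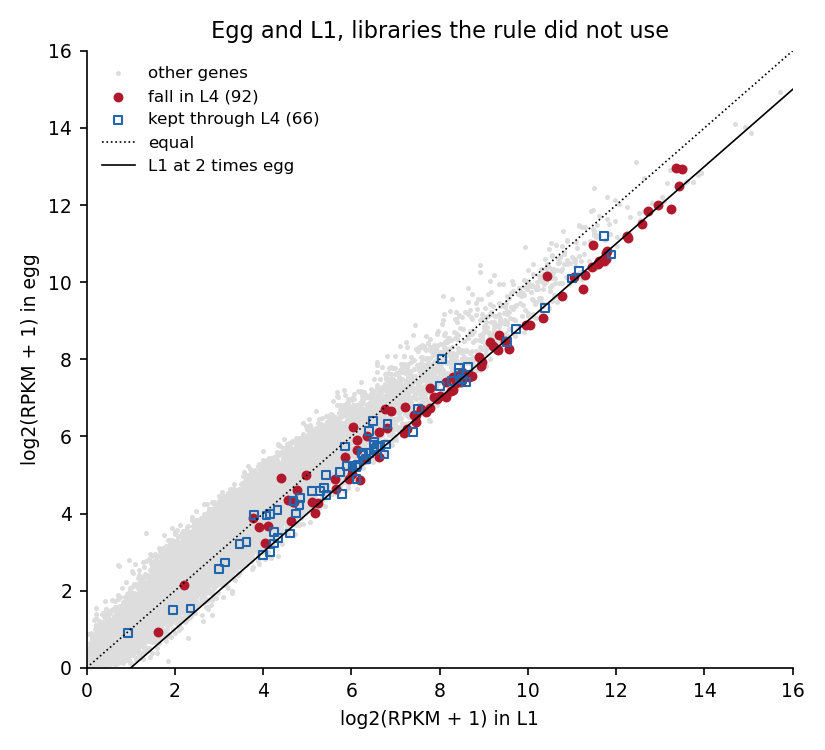
Expression in the egg (vertical axis) against L1 (horizontal axis), both as log2(RPKM + 1), for the 92 genes that fall in L4, the 66 larval genes kept through L4 and all other genes above 0 in both libraries. The genes of both larval sets lie mostly along the solid line at which L1 is 2 times the egg, with median ratios of 1.92 and 1.74, below the bulk of the other genes around the dotted line of equal values.

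The genes with the highest L1 relative to later instars were RR46_04085 and RR46_10841, which were also the highest in the egg by the same measure. RR46_04085 had 3709 RPKM in the egg, 6797 in L1, 2811 in L2, 460 in L3, 25.3 in L4 and 235 in L5, so that its level in L5 was 28.8-fold below L1. RR46_10841 had 169 in the egg and 282 in L1, against 14.3 in L5. At the other end, RR46_06420 and RR46_06419 were 7.40-fold and 5.75-fold lower in L1 than in the lowest of L2, L3 and L5.

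In pupae and adults the genes were low by the choice of the set, but 81 of the 92 were still higher in L4 than in any pupa or adult. Of the 3288 genes 837 were so, and of all 15123 genes 2030. In the set, 41 genes were 4-fold or more higher in L4, against 6.45% of the 3288 genes and 2.24% of all genes. The median ratio over the 92 genes was 3.24 on the scale of RPKM + 1. In the 66 kept genes this ratio was 28.2. All 66 were 4-fold or more higher in L4, which their definition requires, while the 92 genes were chosen for a low L4. The 2 medians therefore differ in part by definition. An RPKM of 1 or more was found for 41 and 37 genes in the female and male pupae and for 20 and 32 in the female and male adults, against 75.2% and 79.1% of all genes in the pupae and 73.6% and 82.2% in the adults, which the rule fixes in part. Among these 4 libraries the highest value was pupal in 30 (female) and 23 (male) genes and adult in 8 (female) and 29 (male), and 2 genes had 0 reads in all 4. In pupae, 1 gene was lower by 4-fold or more in the female relative to the male, against 0.487% of the 3288 genes and 4.03% of all genes, and 1 was higher, against 0.517% and 0.456%. In adults 13 genes were lower by 4-fold or more in the female relative to the male, against 9.15% and 10.3%, and 1 was higher, against 7.85% and 8.87%. Reads were few in these libraries, with 3 or fewer for 45 of the 92 genes in the female and 28 in the male adult.

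The highest values in any pupa or adult belonged to RR46_05829 and RR46_00227. RR46_05829 had 2930 RPKM in the egg, 6107 in L1, 17626 in L2, 5537 in L3, 521 in L4 and 7556 in L5, and 342 and 446 in the female and male pupae and 6.21 and 65.4 in the female and male adults. RR46_00227 had 1803 in the egg, 3525 in L1, 4057 in L2, 2802 in L3, 269 in L4 and 4116 in L5, and 179 and 237 in the female and male pupae and 4.16 and 65.1 in the female and male adults. In both genes the L4 value was above both pupal values, and the female adult was the lowest of the 10 libraries.

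Some of the genes carried consecutive identifier numbers. Of the 92 genes, 36 (39.1%) fell into 14 runs of consecutive numbers, of which 9 had 2 genes, 3 had 3 genes, 1 had 4 and 1 had 5. In the 66 kept genes 12 (18.2%) were in such runs, the longest of 2 genes, and in the 43 genes between the sets 6. Of the 3288 genes 51.2% were in runs, the longest of 9 genes, and a larger set holds more such runs by its size alone, so that the shares cannot be compared. The files do not state whether consecutive numbers are neighbours in the genome, and the run lengths are given as a property of the identifiers. Reads that match several members of a gene family could be shared among them, which was not tested. Near-identical copies, of equal length and close read numbers, were found for 33 genes of the table and 0 of the 92, and this count does not cover relatives that differ more.

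The longest run went from RR46_06416 to RR46_06420, and its 5 genes differed in the size of the decline. RR46_06416, of 564 bp, had 1506 RPKM in the egg, 3128 in L1, 29696 in L2, 22269 in L3, 134 in L4 and 728 in L5, so that L5 was also low and L4 was 5.40-fold below it. RR46_06420 at the other end of the run, given above, was 152-fold below its lowest instar. The 3 genes with the numbers between them had differences of 37.4-fold, 14.2-fold and 39.4-fold. The recovered lengths of the 92 genes ran from 252 to 4827 bp with a median of 843 bp, against 868.5 bp in the kept genes and 1002 bp over all genes.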

How the data were processed

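The authors deposited RPKM values for 15123 genes in 10 libraries, made from poly-A RNA with random primers and paired-end Illumina sequencing, and mapped to their genome assembly, per the study's methods. The submitters' processing notes name TopHat 1.0.12 and 1.4.1. The counting tool, the use of strand and the treatment of reads with several hits are not given in the sources used here. The deposited RPKM do not correct for library composition.

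Analyses used Python 3.11.15, pandas 2.3.3 and scipy 1.17.1. Ratios were taken on RPKM + 1, on which a change of a low gene is understated. Groups came from the sample titles, with 1 library each. Reads, gene lengths and library totals were solved from ratios of the deposited values, with the commonest gap between lengths set at 3 bp, and 15122 of 15123 genes gave back their values within a relative tolerance of 1e-07. Lengths and reads are the smallest that the values allow. The recovered reads served for depth and intervals only, and no count model was fitted. The steps were checked on simulated data. Kept genes met the larval part of the rule with L4 at most 2-fold below the lowest of L2, L3 and L5. Near-identical copies had the same length and reads within 2% (or 3 reads) in each library.

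The genes, the comparison set and the rules for named genes were chosen with earlier results of these data known. Named genes were the 2 highest, the 2 with the largest decline, those next to a threshold, the extremes in egg, L1, each instar and the pupae and adults, and the longest run of numbers. With no gene names, at most 2 identifiers per direction are printed for a comparison. The lists of digestive, detoxification, cuticle, fat body, silk gland and muscle genes fixed by name gave no values, because no identifier had a name.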

Additional observations from a re-analysis of the deposited data

How the results depend on the processing

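The rule was repeated under 18 other settings, which gave 106 values for 6 results, of which 25 moved (counts by over 1.5 times, the median decline by any amount) and 81 did not. The 92 genes were all kept in 14 of the settings. Apart from quartile scaling, these settings only loosen the rule or remove no gene of the set, so that this outcome was fixed by construction. With 8-fold in place of 4-fold over L4, 57 genes remained, 56 of them detected in the egg and 57 in L1, by construction. Under sum scaling 64 genes met the rule, all among the 92, and under quartile scaling 108. The genes 4-fold or more lower in L1 numbered 24 under quartile scaling and 1 under sum scaling, and the kept genes 105 at 4-fold and 34 at 16-fold over pupae and adults. With 1 of the rule's libraries other than L4 left out each time, from 92 to 130 genes met it, from 91 to 129 detected in the egg, from 92 to 130 detected in L1, from 8 to 30 lower in L1 and from 67 to 85 kept. Without L2 30 genes were lower in L1, without L3 16 and without L5 27, as fewer libraries bound the lowest value. The median decline ranged from 2.75 (2-fold over L4) to 3.85 (8-fold over L4) on the log2 scale. No paired analysis was possible because each stage had 1 library and the labels give no replicate numbers. Depth limits the values in adults, where 45 (female) and 28 (male) of the 92 genes had 3 reads or fewer, and the single library per stage leaves every difference without a replicate check.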
